A study of Mus musculus with 10 samples.

Results

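Male mouse embryonic stem cells (mESCs) kept in suspension by the Keniry2022 method were compared with sister cells kept on gelatin by the Mulas2019 method, with the cells of passage 10 (p10) and passage 20 (p20) pooled. The comparison used 8 of the 10 RNA-seq libraries of the series, 4 libraries for each method, and a library entered a method by its label. All cells were male mESC lines of the C57/Bl6 strain in 2i/LIF medium, with no treatment or engineered genotype named in the labels. Per the study, one of the lines lost its Y chromosome during derivation, before the split. Per the study's methods, 2 lines were derived by the Keniry2022 method, split at p0 and carried in both methods, so the 4 libraries of a method are 2 lines at 2 passages and not 4 derivations. The other 2 libraries are p0 cells, taken at the split, which belong to neither method. Compared with Keniry2022, the Mulas2019 method uses a gelatin-coated tissue culture plate, a lower plating density, less medium and passaging at intervals of 48 rather than 24 h. Substrate, density, medium volume, passaging interval and days in culture therefore cannot be told apart in this comparison.

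Mouse ESCs are the cultured counterpart of the inner cell mass of the blastocyst. The 2i medium holds them in a naive state with one inhibitor of the kinase MEK, which passes on FGF signals, and one inhibitor of GSK3, which frees the WNT effector β-catenin, and LIF acts through the transcription factor STAT3. On gelatin, colonies attach and flatten, whereas on plastic not treated for culture they float as clusters. Cells answer a shortage of amino acids through the integrated stress response and its transcription factor ATF4, low oxygen through the hypoxia-inducible factors (HIFs), and low sterol through the SREBP factors.

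The libraries held between 24053996 and 30236823 reads. The unit of every level here is log2 RPKM, the log2 of the read count scaled for feature length and library size, and differences are Keniry2022 minus Mulas2019 on that log2 scale, ± the standard error. Of the 8 marker genes of mESCs all 8 were tested and their summed level was 2985 to 3222 RPKM in the Keniry2022 and 2757 to 2933 RPKM in the Mulas2019 libraries. None of 6 fibroblast markers and none of 6 primitive endoderm markers reached the expression filter, and the fibroblast markers Col3a1 and Dcn had no read in any of the 8 libraries. Summed over its markers, primitive endoderm reached 1.23 to 1.47 RPKM in Keniry2022 and 1.69 to 1.82 RPKM in Mulas2019 libraries, and neural markers 4.50 to 5.48 and 5.53 to 7.74 RPKM. Mesoderm markers reached 4.27 to 5.80 and 3.50 to 4.70 RPKM, and trophoblast markers 3.56 to 4.77 and 4.19 to 4.65 RPKM. Nes, Gsc and Ascl2 were the single neural, mesoderm and trophoblast markers tested. Their part in the results was not tested. Reads of Y-linked genes were few (13 to 132) in 1 library of every group and numerous (4578 to 8140) in the other. The library with few was replicate 1, except at p20 of Keniry2022, where it was replicate 2. The comparison of methods does not use these numbers.

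The methods differed across the transcriptome. Of 11654 features with a log2 RPKM over 0 in at least 50% of the 8 libraries, 6000 (51.5%) were called at an adjusted p under 0.05 by limma, with 3024 higher under Keniry2022 (25.9% of the features tested) and 2976 lower (25.5%). Most differences were small, with a median size of 0.30 on the log2 scale among called features, and 177 of them reached a log2 of at least 1. The methods did not overlap in 5415 features (46.5% of those tested), the 4 values of either method being all above the rest. The median difference of all features was -0.003. When the 2 p0 libraries were put into a model of 10 libraries and 5 groups, 2225 features were called, 2191 of them also called with the 8 libraries. Such a share of calls is the scale against which every count of a gene group below is read. A feature's RNA can be lower because fewer cells make it or because each cell holds less, and bulk RNA-seq cannot tell these apart.

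The direction of the difference went with the level of expression. Among 332 features with a mean log2 RPKM over 7, 220 rose under Keniry2022 and 29 fell, with a median difference of 0.20. Among 1490 features with a mean log2 under 1, 120 rose and 540 fell, with a median of -0.21. The 1632 features at 5 to 7 lay at a median of 0.12 and the 3932 features at 1 to 3 at -0.09. By annotated gene type, 102 of 209 pseudogenes rose and 10 fell (median 0.20), whereas 80 of 501 long noncoding RNAs rose and 123 fell (median -0.07). The 10757 protein-coding genes were even, with 2792 higher and 2811 lower.

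**Figure D1:**
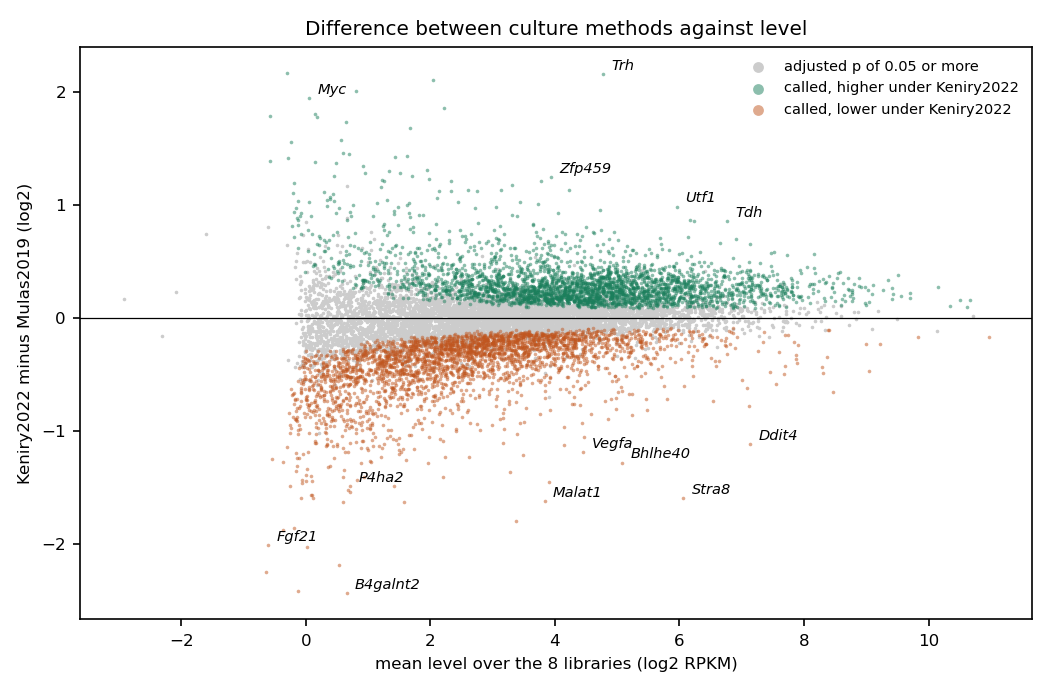
Difference between methods (Keniry2022 minus Mulas2019, log2) against the mean log2 RPKM over the 8 libraries, 1 point per tested feature, with called features coloured by direction and the genes described in the text labelled. Features with a mean over 7 have a median difference of 0.20 and those under 1 of -0.21, and 177 called features lie at a log2 of 1 or beyond.

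The feature with the greatest rise among well expressed ones (a mean log2 of at least 3 and no overlap between methods) was Trh, which encodes the precursor of thyrotropin-releasing hormone and lies on chromosome 6 at 92242061 to 92244650 (GRCm38). Its log2 RPKM was 5.48, 6.18, 5.82 and 5.90 in the Keniry2022 libraries (p10 replicates 1 and 2, then p20 replicates 1 and 2, an order kept in every list of 4 values) and 2.63, 3.52, 4.16 and 4.43 under Mulas2019. The 2 methods did not overlap, and the Mulas2019 libraries were the more scattered (SD 0.80 against 0.29). The difference was 2.16 ± 0.33, a 4.46-fold higher level (adjusted p = 0.00051), and it was 2.75 at p10 and 1.57 at p20. Zfp459, a zinc finger gene of chromosome 13, stood at 4.63, 4.71, 4.43 and 4.50 against 3.14, 3.26, 3.41 and 3.49, a rise of 1.25 ± 0.08. For Trh and Zfp459 the lack of overlap between methods was a condition of being named. Cbr3, a carbonyl reductase of the antioxidant response, rose by 1.21 ± 0.14, from a mean of 3.17 to 4.38.

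Several of the rises with the smallest p were metabolic or chromatin genes. Pnp, the purine nucleoside phosphorylase of purine salvage, was 4.56, 4.63, 4.48 and 4.39 against 3.51, 3.58, 3.62 and 3.65 (difference 0.93 ± 0.06, adjusted p = 1.9e-05). Tdh, the threonine dehydrogenase that mouse ESCs use to make glycine and acetyl-CoA from threonine, was 7.17, 7.28, 7.15 and 7.18 against 6.22, 6.35, 6.35 and 6.45 (difference 0.86 ± 0.05). The SD of both genes within a method was at most 0.10. Pnp, Tdh, Gnpnat1, Nhp2 and Eed all met a naming rule that required a small p and no overlap between methods. Their small scatter and separate ranges therefore follow from that rule. The noncoding feature Gm17232 overlaps Tdh on the opposite strand and moved by 0.82, and the counting is not stated to use strand, so reads of the pair cannot be separated. Gnpnat1, an enzyme of UDP-GlcNAc synthesis, rose by 0.73 ± 0.04, Nhp2, a protein of box H/ACA RNA particles, by 0.59 ± 0.03, and Eed, the subunit of Polycomb repressive complex 2 (PRC2) that binds its own histone mark, by 0.67 ± 0.04. For Gnpnat1 the 4 Keniry2022 values ran from 4.72 to 4.84 and the 4 Mulas2019 values from 4.03 to 4.14.

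Gja1, which encodes the gap junction protein connexin 43, was 5.01, 5.29, 5.25 and 5.27 under Keniry2022 and 3.82, 4.25, 4.36 and 4.58 under Mulas2019 (difference 0.95 ± 0.14). The 3 uncharacterised or little-described features Gm10664, CR555305.1 and Gm694 rose by 1.18, 1.13 and 1.13. Other well expressed genes that rose were Ppp1r14d, an inhibitor of protein phosphatase 1, by 1.03, Glrx, a glutaredoxin, by 0.98, and Liph, a lipase, by 0.90. In each of these features the 4 Keniry2022 values lay above the 4 Mulas2019 values, which was a condition of being named.

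Below a mean log2 of 3, where more features fell than rose, the leading rises of several gene lists were large. Myc, the growth-promoting transcription factor, had 1.26, 1.43, 0.27 and 1.18 under Keniry2022 and -1.18, -1.41, -0.65 and -0.41 under Mulas2019, and the lowest Keniry2022 library, p20 replicate 1, still lay above all of Mulas2019. The difference was 1.95 ± 0.29, a 3.85-fold higher level on 92 to 211 reads against 29 to 56, and 0.996 with a pseudocount of 1 added to the RPKM. The inhibitors of differentiation Id1 and Id3, which are targets of BMP signalling, rose by 1.78 ± 0.15 and 1.67 ± 0.21. Id1 stood at 1.21, 1.27, 0.70 and 1.11 against -0.81, -0.55, -0.84 and -0.60, and Id3 at 2.70, 2.96, 2.13 and 2.28 against 0.81, 1.33, 0.48 and 0.76. Neither gene had a Mulas2019 library that reached the lowest Keniry2022 one, and Id1 rested on 53 to 81 reads against 16 to 24. Etv1, an ETS factor, rose by 1.26, Foxd3, a forkhead factor of the early epiblast, by 1.13 and Anxa1, a calcium-dependent membrane-binding protein, by 1.81 ± 0.25 (136 to 172 reads against 21 to 56). With the pseudocount the differences were 0.95 for Id1, 0.72 for Etv1 and 0.93 for Anxa1, all still called.

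A single feature passed the rule for being on in one method, with 4 libraries above a log2 of 1 and 4 below 0. It was B4galnt2, a glycosyltransferase that adds N-acetylgalactosamine to glycans, on chromosome 11 at 95865943 to 95914891 (GRCm38). Its values were -0.48, -0.59, -0.55 and -0.62 under Keniry2022 and 2.39, 2.02, 1.69 and 1.38 under Mulas2019, on 33 to 35 reads and 123 to 219 reads. The gene fell by 2.43 ± 0.19 under Keniry2022 (5.39-fold, adjusted p = 3.6e-05; by 1.48 with the pseudocount of 1), and both p0 libraries, at -0.28 and 0.13, lay near the Keniry2022 values. It overlaps the feature Gm11534 on the other strand.

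**Figure D2:**
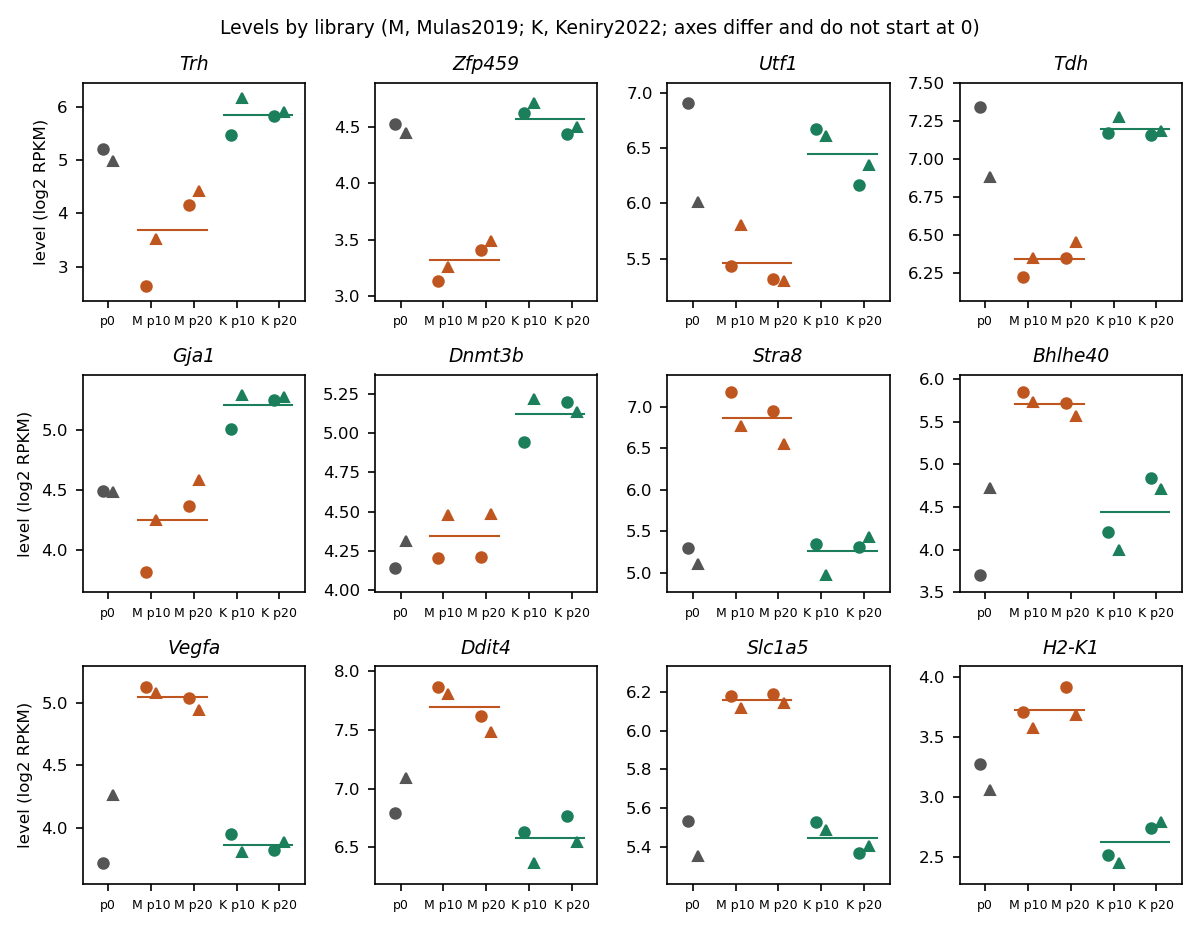
Log2 RPKM of 12 genes in the 10 libraries, by group (p0, Mulas2019 at p10 and p20, Keniry2022 at p10 and p20), with circles for replicate 1, triangles for replicate 2 and lines for the mean of the 4 libraries of a method. Trh, Zfp459, Utf1, Tdh, Gja1 and Dnmt3b are higher in every Keniry2022 library than in any Mulas2019 library, and Stra8, Bhlhe40, Vegfa, Ddit4, Slc1a5 and H2-K1 are lower in every one. All 12 genes met a naming rule that required no overlap.

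The greatest falls among well expressed features were those of the nuclear noncoding RNA Malat1 and of Gm20417, which overlaps it. Malat1 was 3.29, 3.15, 2.76 and 2.91 under Keniry2022 and 3.85, 4.37, 5.24 and 5.13 under Mulas2019 (difference -1.62 ± 0.27). The difference was -0.89 at p10 and -2.35 at p20, the Mulas2019 libraries of p20 being the highest of all. Neat1, the RNA that builds paraspeckles, moved likewise with -0.31 at p10 and -1.51 at p20, and its pooled call (-0.91, adjusted p = 0.019) was lost without p20 Mulas2019 replicate 1, under quantile normalisation and when length and GC were corrected for. Stra8, the retinoic acid-induced gene that marks entry into meiosis, had 5.35, 4.97, 5.31 and 5.43 against 7.18, 6.76, 6.94 and 6.55. Stra8 was 3.01-fold lower under Keniry2022 (difference -1.59 ± 0.13), and it met a naming rule that required no overlap between methods. Rec8, a meiotic cohesin subunit, fell by 1.08 ± 0.11, from 2.51 to 2.87 under Mulas2019 down to 1.40 to 1.88. Of the 28 germline and meiosis genes tested, 5 rose, 6 fell and 17 were not called, and the median was -0.01, and the other direction included Dazl, an RNA-binding protein of germ cells (0.50 ± 0.08), and Tex15, which guards meiotic recombination (0.51 ± 0.12, a call lost in the model of 10 libraries).

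The smallest p of the whole comparison belonged to Vegfa, the vascular growth factor and a HIF target, on chromosome 17 at 46016993 to 46032377 (GRCm38). It stood at 3.95, 3.80, 3.82 and 3.88 under Keniry2022 and at 5.12, 5.08, 5.04 and 4.94 under Mulas2019. Within a method the SD was at most 0.08, and the fall of 1.18 ± 0.05 (2.27-fold, adjusted p = 3.4e-06) was alike at p10 (-1.22) and p20 (-1.14). Of 21 HIF targets and pathway genes tested, 15 fell, 3 rose and 3 were not called, with a median of -0.72. The 3 that rose were Hif1a (0.27 ± 0.04) and Epas1 (0.42 ± 0.10), the oxygen-regulated subunits themselves, and the histone demethylase Kdm3a (0.15 ± 0.03). The calls of Hif1a and Kdm3a were lost in the model of 10 libraries, and that of Kdm3a also under quantile normalisation. Bhlhe40, a transcriptional repressor, was 4.21, 4.0, 4.84 and 4.71 under Keniry2022 and 5.85, 5.73, 5.72 and 5.57 under Mulas2019, a fall of 1.28 ± 0.16. The p20 Keniry2022 libraries were closer to Mulas2019 than the p10 ones, and the difference was -1.69 at p10 and -0.87 at p20. Bhlhe40 overlaps 0610040F04Rik on the other strand. Egln1 and Egln3, the prolyl hydroxylases that mark HIF for destruction, fell by 0.81 and 0.84. P4ha1 and P4ha2, which hydroxylate collagen, fell by 0.77 and 1.49, and Bnip3, a mitophagy receptor, by 0.72. Ndufa4l2, which takes the place of a respiratory chain subunit in low oxygen, fell by 1.45 and overlaps the folate gene Shmt2. Over the list, the median difference was -0.99 at p10 and -0.51 at p20.

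Glycolysis genes moved in the same direction by less. Of 28 tested, 21 fell and 2 rose, with a median of -0.40 (-0.58 at p10 and -0.17 at p20). Ldha, lactate dehydrogenase A, was 8.58, 8.55, 9.15 and 8.95 against 9.34, 9.32, 9.24 and 9.20, so that p20 Keniry2022 replicate 1 came close to the lowest Mulas2019 library, and the fall was 0.47 ± 0.12. Slc2a1, the glucose transporter GLUT1, fell by 0.48, Slc16a3, a lactate exporter, by 0.81, Pfkl, a phosphofructokinase, by 0.73 and Pgm2, a phosphoglucomutase that GENCODE names Pgm1, by 0.81. For Pgk1 the 2 methods overlapped, and its call (-0.34) was lost when any of 3 libraries was left out, which were p10 Keniry2022 replicate 1, p10 Keniry2022 replicate 2 and p10 Mulas2019 replicate 1. Mlxipl, the glucose-responsive factor ChREBP, fell by 1.23 ± 0.13.

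**Figure D3:**
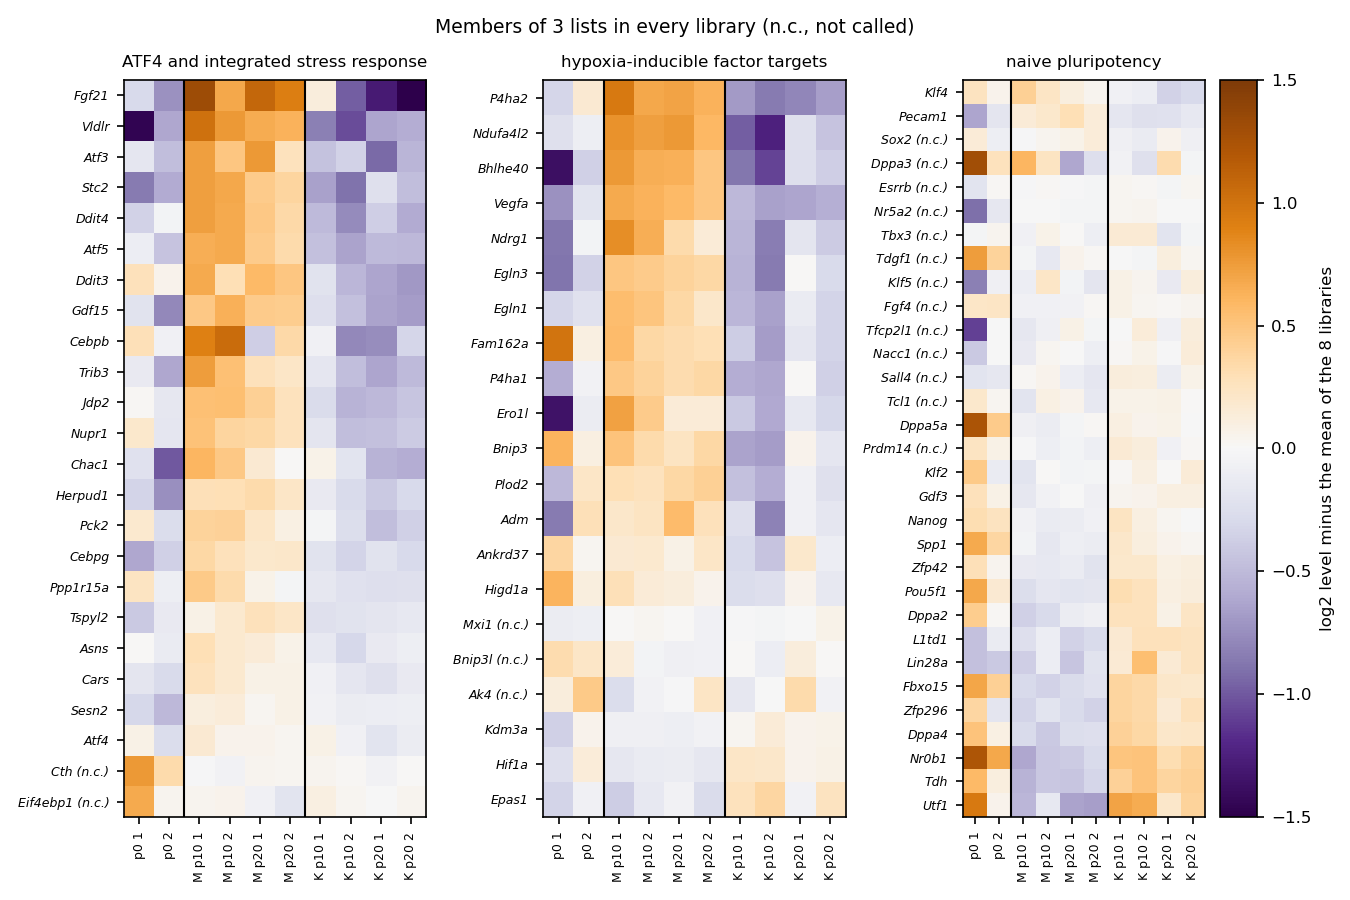
Log2 RPKM minus the gene's mean over the 8 libraries, for genes of the integrated stress response, the HIF list and the naive pluripotency list (rows) in the 10 libraries (columns), with n.c. beside genes that were not called. The naive list is drawn without 1 of its tested genes. Genes of the first 2 lists are mostly low in the Keniry2022 columns and high in the Mulas2019 columns, with the p20 Keniry2022 columns nearer to zero for the HIF genes, and the naive list is mixed with a small rise.

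The integrated stress response was lower in nearly all its genes. Of 24 tested, 22 fell under Keniry2022, none rose and 2 were not called, Cth with a difference of 0.00 and Eif4ebp1 with 0.08, and the median was -0.69. In 19 of them every Keniry2022 library lay below every Mulas2019 library, beside 2726 of all 11654 features tested. Ddit4, an inhibitor of the growth kinase mTORC1, was 6.63, 6.37, 6.76 and 6.55 against 7.87, 7.81, 7.61 and 7.48 (difference -1.11 ± 0.10, adjusted p = 4.6e-05). Atf5, a transcription factor made under stress, was 4.01, 3.82, 3.97 and 3.95 against 5.11, 5.14, 4.91 and 4.80 (difference -1.05 ± 0.08). For Ddit4 and Atf5 the lack of overlap between methods was a condition of being named. Exons of Atf5 lie within the spans of Nup62 and Il4i1 on the other strand, and exons of Ddit3 within those of Gm4189 and Mars. Ddit3, the stress factor CHOP, fell by 1.02, Atf3 by 1.13, Trib3, a pseudokinase that restrains ATF4, by 0.89, Stc2, a secreted glycoprotein, by 1.12, Nupr1 by 0.76 and Vldlr, a lipoprotein receptor, by 1.54. Fgf21, a secreted metabolic hormone, fell by 2.00 ± 0.36, but on 5 to 19 reads against 30 to 37. The messenger RNA of Atf4 itself differed by -0.15 ± 0.06 (7.55 to 7.82 against 7.77 to 7.91, overlapping), and its call at an adjusted p of 0.047 was lost under 13 of 22 alternatives. Chac1, which degrades glutathione, fell by 0.63 ± 0.16 with overlap, 3.50 to 4.14 against 4.09 to 4.68.

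The 250 bases upstream of the gene starts in RefSeq (GRCm38.p6) were searched on both strands for TGATGNAA, the composite site bound by ATF4 with a C/EBP partner, because the genes of this list moved together. The motif was in 1056 (3.91%) of 27025 genes and in 9 of the 21 list genes with an entry (42.9%), which were Asns, Atf3, Chac1, Fgf21, Herpud1, Jdp2, Nupr1, Pck2 and Vldlr. The list was drawn up around ATF4, so its share of motifs is not independent of that choice. Whether ATF4 acts here was not tested. Among all tested features with an entry, 57.5% of the 193 with the motif were called (median -0.05) and 52.0% of the 8593 without (median -0.01). The stretches of 3 of these genes are shown 5′ to 3′ on the gene's own strand with the motif or its reverse complement in capitals. They are chr2:119351019-119351086 (plus strand), chr1:191183406-191183473 (minus strand) and chr6:7693210-7693262 (minus strand).
Chac1: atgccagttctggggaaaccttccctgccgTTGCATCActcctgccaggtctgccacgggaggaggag
Atf3: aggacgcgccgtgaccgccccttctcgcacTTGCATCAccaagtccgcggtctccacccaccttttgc
Asns: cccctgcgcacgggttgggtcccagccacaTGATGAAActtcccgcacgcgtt
The motif began 193, 110 and 23 bases before the gene start. Asns, asparagine synthetase, fell by 0.34 ± 0.06.

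The same search for ACGTG, the core of the element bound by HIF, found it in 4998 genes (18.5%) and in 11 of the 14 HIF list genes with an entry (78.6%). The 2 shares are not on a like basis, since all genes include ones not tested and the list was drawn up around HIF. Of the glycolysis genes with an entry 14 of 26 (53.8%) had the motif, and of the integrated stress response genes 8 of 21 (38.1%). The motif was in 4 of 17 genes of sterol synthesis and uptake (23.5%) and in 2 of 18 naive pluripotency genes (11.1%). ACGTG also lies within the CACGTG element of other factors. Over all tested features with an entry the motif went with no difference in calls, 51.3% of 2294 with it and 52.4% of 6492 without. Stretches of 2 genes that fell are shown in the same way, from chr10:59323250-59323295 (plus strand) and chr7:138909579-138909643 (minus strand). In P4ha1 the match is on the opposite strand, and in Bnip3 both strands match in one CACGTG.
P4ha1: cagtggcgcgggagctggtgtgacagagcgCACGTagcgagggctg
Bnip3: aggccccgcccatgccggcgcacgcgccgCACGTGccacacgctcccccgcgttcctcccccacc
A match in this window is a description of letters, and binding was not measured here.

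Amino acid transporters went both ways. Of 18 amino acid transporters tested, 11 fell and 3 rose (median -0.26). Slc1a5, the glutamine transporter ASCT2, was 5.53, 5.49, 5.37 and 5.40 against 6.18, 6.12, 6.19 and 6.14 (difference -0.71 ± 0.04, adjusted p = 1.9e-05). The lack of overlap was a condition of its being named. Slc1a4, a transporter of alanine and serine, fell by 0.76, and Slc6a9, the glycine transporter GLYT1, by 1.06 ± 0.10. Slc6a9 overlaps several features on the other strand. The 3 that rose were Slc6a15, a carrier of branched-chain amino acids and proline (1.21 ± 0.15), Slc7a3, a carrier of cationic amino acids (0.56 ± 0.05), and Slc1a1, a glutamate carrier (0.64). The call of Slc1a1 was lost without p10 Keniry2022 replicate 2 and without p20 Keniry2022 replicate 2.

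The list of serine, glycine and one-carbon metabolism was mixed, with 11 of 22 genes higher, 8 lower and a median of 0.06 (-0.04 under quantile normalisation). Psat1, Psph, Mthfd2, Mthfd1l, Gldc, Amt, Gcsh and Shmt1 are named here after their values were seen. Among genes that make serine, Phgdh fell by 0.52 ± 0.08, Psat1 by 0.30 ± 0.07 and Psph by 0.47 ± 0.07. Phgdh was 4.65, 4.49, 4.94 and 4.75 against 5.20, 5.24, 5.21 and 5.24, the Mulas2019 libraries being nearly equal. The mitochondrial folate enzymes Shmt2, Mthfd2, Mthfd1l and Aldh1l2 fell by 0.62, 0.37, 0.35 and 1.09. Tdh rose as given above, and the glycine cleavage genes Gldc, Amt and Gcsh rose by 0.29, 0.20 and 0.37 and the cytosolic Shmt1 by 0.21. The calls of Gldc, Amt and Shmt1 were lost in the model of 10 libraries. Aldh18a1 and Pycr1, which make proline from glutamate, fell by 0.67 ± 0.06 and 0.56 ± 0.08, and Glul, which makes glutamine, rose by 0.59 ± 0.11.

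Lipid synthesis genes were lower by small amounts. Of 24 genes of sterol synthesis and uptake, 18 fell and 3 rose (median -0.24), and of 19 genes of fatty acid synthesis 12 fell and none rose (median -0.18). Dhcr7, the last enzyme of one branch of cholesterol synthesis, was 4.16, 4.0, 4.18 and 4.08 against 4.77, 4.79, 4.68 and 4.65 (difference -0.62 ± 0.05). Scd2, a desaturase, fell by 0.42 ± 0.03, from 7.86 to 7.93 down to 7.43 to 7.54. Lss, lanosterol synthase, fell by 0.52 and Fads1 by 0.38. The 3 that rose were Hmgcs1, Ebp and Cyp51, by 0.26, 0.29 and 0.12. Hmgcs1 lost its call under quantile normalisation and in the model of 10 libraries. Ebp lost its call without p20 Keniry2022 replicate 2 and without p10 Mulas2019 replicate 2, and Cyp51 without any of 4 libraries, which were p10 Keniry2022 replicate 1, p20 Keniry2022 replicate 1, p10 Mulas2019 replicate 2 and p20 Mulas2019 replicate 1.

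**Figure D4:**
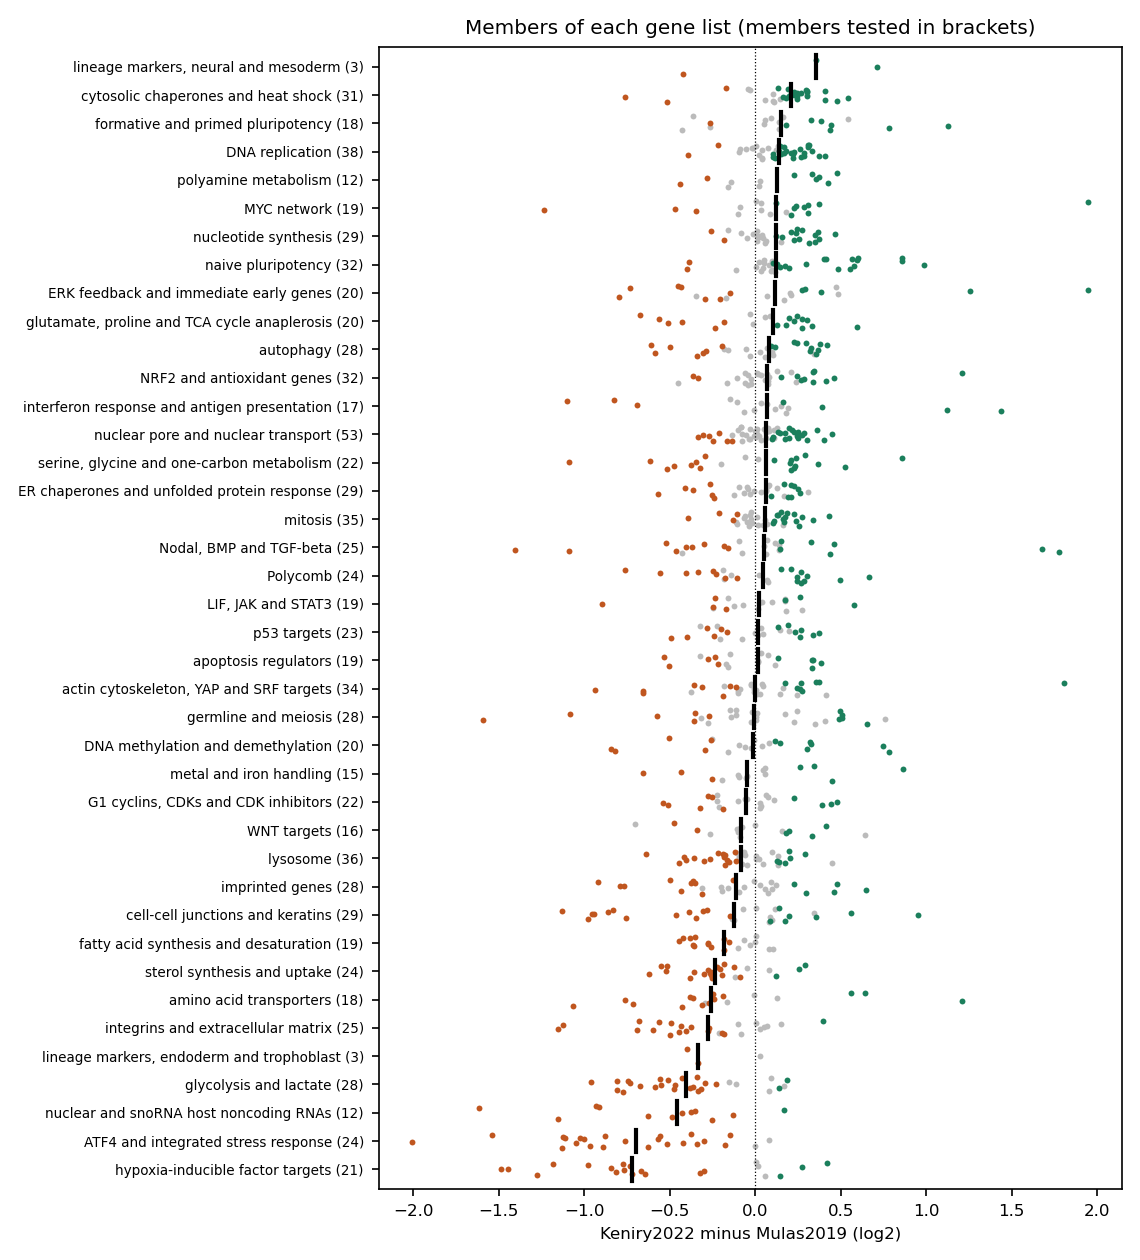
Log2 difference between methods (horizontal axis) of the tested members of each gene list with at least 3 tested members (1 point per gene, black bars for the list's median, dotted line for the median of all features, -0.003). The integrated stress response (-0.69), the HIF list (-0.72), the noncoding RNAs (-0.46) and glycolysis (-0.40) lie lowest, and the cytosolic chaperones lie at 0.21.

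Most genes of attachment were lower under Keniry2022. Of 25 integrin and extracellular matrix genes tested, 16 fell, 1 rose (Itgb5, by 0.40 ± 0.08) and 8 were not called (median -0.28, and -0.10 to -0.34 over the alternatives). Beside this, all features with a mean log2 under 1 had a median of -0.21, and those at 1 to 3 of -0.09. Col4a1, Col4a2 and Itgb4 lie at these low levels. The basement membrane collagens Col4a1 and Col4a2 fell by 0.69 ± 0.08 and 1.15 ± 0.13, Itgb4, an integrin chain of hemidesmosomes, by 1.12 ± 0.11, and Col9a2 by 0.92 ± 0.08. Col4a2 was 0.20, 0.29, 0.52 and 0.63 against 1.55, 1.51, 1.84 and 1.34, without overlap. The main integrin chain, Itgb1, was level (5.73 to 5.93 against 5.76 to 5.81, difference 0.03 ± 0.04, adjusted p = 0.64). Of 29 genes of cell junctions and keratins, 13 fell and 7 rose, and the median of -0.13 became 0.09 when genes with low values were filtered more strictly. The epithelial genes Cldn3, Cldn7, Krt18 and Krt19 fell by 0.98, 0.94, 1.13 and 0.96 on at most 198 reads in any library, and Dsp, a desmosome protein, by 0.86 ± 0.08 with a call lost in the model of 10 libraries, whereas Jup, plakoglobin, rose by 0.56 ± 0.05. Cdh1, which encodes E-cadherin, differed by 0.09 ± 0.04 (adjusted p = 0.097). Targets of YAP and SRF and actin genes were even, with 8 of 34 higher and 8 lower and a median of -0.001, and Actb differed by -0.10 ± 0.05 (adjusted p = 0.10). Anxa2, which binds membrane and actin, fell by 0.94 ± 0.16, opposite in direction to Anxa1.

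Naive pluripotency genes were expressed in both methods, most of them slightly higher under Keniry2022 or not called. Of 32 tested, 17 rose, 2 fell and 13 were not called, with a median of 0.12, which is also the median of all features with a mean log2 of 5 to 7. The list's median ran from 0.01 to 0.19 over the alternatives. Pou5f1, which encodes OCT4, was 8.85, 8.81, 8.64 and 8.67 against 8.29, 8.37, 8.35 and 8.36 (difference 0.40 ± 0.05). Utf1, a chromatin factor of undifferentiated cells, was 6.67, 6.61, 6.16 and 6.35 against 5.43, 5.81, 5.31 and 5.30 (difference 0.98 ± 0.13), and Nr0b1, a nuclear receptor that curbs OCT4, rose by 0.86 ± 0.07. Utf1 and Nr0b1 both met a naming rule that required no overlap between methods. Dppa4 rose by 0.59. The 2 that fell were Klf4 (-0.40 ± 0.09) and Pecam1 (-0.39), and Sox2 and Esrrb were not called (-0.11 and 0.02). Nanog rose by 0.18 ± 0.05, a call lost under quantile normalisation, when length and GC were corrected for and in the model of 10 libraries.

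Of 18 genes of formative and primed pluripotency tested, 7 rose and 1 fell (Lin28b, by 0.26, a call lost under quantile normalisation and in the model of 10 libraries), with a median of 0.15. Foxd3, Dnmt3b, Dnmt3a and the Nodal inhibitor Lefty2 (0.44 ± 0.08) were among those that rose. Dnmt3b, a de novo DNA methyltransferase, was 4.94, 5.22, 5.20 and 5.13 against 4.21, 4.48, 4.21 and 4.48 (difference 0.78 ± 0.08, 0.74 at p10 and 0.82 at p20). It overlaps 7530422B04Rik on the other strand. Its cofactor Dnmt3l rose by 0.75 ± 0.10 and Dnmt3a by 0.33 ± 0.08, while Dnmt1, which copies methylation at replication, differed by -0.02 ± 0.04 (adjusted p = 0.68). Tet3, which oxidises methylcytosine, fell by 0.82 ± 0.11. The call of Dnmt3a was lost in the model of 10 libraries. Over the 20 genes of DNA methylation tested, 7 rose and 5 fell.

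Polycomb genes moved in opposite directions, with 10 of 24 higher and 8 lower and a median of 0.05 (-0.02 under quantile normalisation). Within PRC2, Eed was 7.05, 7.04, 6.92 and 6.89 against 6.29, 6.29, 6.31 and 6.35, and Suz12 rose by 0.24 ± 0.03, Rbbp4 by 0.29, Jarid2 by 0.27 and Mtf2 by 0.25, whereas the catalytic Ezh2 differed by 0.07 ± 0.07 (adjusted p = 0.40). Phf1, an accessory subunit, fell by 0.76 ± 0.16. In PRC1 the chromodomain genes Cbx2, Cbx7 and Cbx8 fell by 0.23, 0.33 and 0.40, while Rnf2, the ubiquitin ligase subunit, and Kdm2b, which brings one form of PRC1 to CpG islands, rose by 0.27 and 0.50. In the model of 10 libraries the calls of Suz12, Jarid2, Kdm2b and Cbx2 were lost, those of Suz12 and Cbx8 under quantile normalisation, and those of Cbx2 and Cbx7 when length and GC were corrected for. Among 28 imprinted genes, 5 rose, led by Mest (0.65 ± 0.05), and 10 fell, with Grb10 (-0.92 ± 0.13), Peg12 (-0.79 ± 0.07) and H19 (-0.77 ± 0.19) the greatest.

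Genes of signalling were divided as well. Of 20 ERK feedback and immediate early genes tested, 5 rose and 7 fell. Jun fell by 0.80 ± 0.10, and Dusp6, a feedback phosphatase of ERK, differed by 0.48 ± 0.19 (adjusted p = 0.053). Jun overlaps BC042782 on the other strand. Of 25 Nodal, BMP and TGF-beta genes, 7 rose and 9 fell, with Id1 and Id3 among the former and the ligand Bmp7 (-1.09 ± 0.15) among the latter. Bmp7 was 0.36, 0.11, 0.80 and 0.19 against 1.28, 1.51, 1.55 and 1.45. Of 19 LIF and STAT genes 3 rose and 4 fell, among them Socs2 (0.58 ± 0.10) and Stat5b (-0.89 ± 0.13). Of 16 WNT targets 4 rose and 2 fell, and Axin2 differed by -0.08 ± 0.17 (adjusted p = 0.72).

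The interferon and antigen presentation list, with 4 of 17 higher and 3 lower, held large differences in both directions. Ddx58, the cytosolic RNA sensor RIG-I, was 2.31, 2.52, 2.27 and 2.27 against 0.71, 1.07, 0.70 and 1.14, a rise of 1.44 ± 0.12, and Oas1a, an enzyme activated by double-stranded RNA, was 3.24, 3.34, 3.39 and 3.30 against 1.71, 2.30, 2.40 and 2.37, a rise of 1.12 ± 0.13. Both sensors stood well apart between the methods. H2-K1, a class I histocompatibility gene, was 2.51, 2.45, 2.74 and 2.79 against 3.71, 3.58, 3.92 and 3.68, a fall of 1.10 ± 0.09. Tap1, a subunit of the transporter that supplies peptide for class I proteins, fell by 0.83 ± 0.19 and Stat2 by 0.69 ± 0.05. H2-K1 has close paralogues that could share its reads. B2m differed by -0.07 ± 0.13 (adjusted p = 0.69).

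Genes of growth and proliferation differed by small amounts, beside medians of 0.12 and 0.20 for all features with a mean log2 of 5 to 7 and over 7. Of 38 DNA replication genes 23 rose and 2 fell (median 0.14), of 29 nucleotide synthesis genes 14 rose and 2 fell (0.12), of 31 cytosolic chaperones 20 rose and 3 fell (0.21), of 35 mitosis genes 15 rose and 4 fell (0.06), of 12 polyamine genes 6 rose and 2 fell (0.13) and of 53 genes of the nuclear pore and nuclear transport 19 rose and 7 fell (0.06). Rpa2, a subunit that coats single-stranded DNA, rose by 0.37 ± 0.03, Ppat, the first enzyme of purine synthesis, by 0.37 ± 0.03, and Odc1 and Srm, which make polyamines, by 0.37 and 0.42. Hsph1, a heat shock protein, was 6.41, 6.46, 6.40 and 6.53 against 5.91, 5.96, 5.88 and 5.87, a rise of 0.54 ± 0.04. Bag3, the chaperone cofactor of heat stress, went the other way, falling by 0.76 ± 0.08. Pole, the catalytic subunit of DNA polymerase epsilon, fell by 0.39 ± 0.04 with a call lost in the model of 10 libraries, and Kif23, of the dividing cell's midbody, by 0.39 ± 0.06. Cdkn1b, which encodes the CDK inhibitor p27, fell by 0.54 ± 0.06, from 3.40 to 3.61 down to 2.91 to 2.99. Among 19 genes of the MYC network 9 rose and 3 fell (0.12). Under quantile normalisation the medians of the mitosis and nuclear pore lists took the other sign, at -0.06 and -0.02.

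Degradation, death and redox genes gave smaller and mixed differences. Of 36 lysosome genes 16 fell and 6 rose (median -0.09), with Neu1, a sialidase, lower by 0.64 ± 0.09, and of 28 autophagy genes 11 rose and 7 fell (0.08), Wipi1 falling by 0.61 ± 0.08. Of 32 NRF2 and antioxidant genes 10 rose and 2, Hmox1 and Me1, fell by 0.33 and 0.37 (median 0.07), with Nqo1, a quinone reductase, at 5.50, 5.50, 5.64 and 5.53 against 5.08, 5.07, 5.04 and 5.14 (difference 0.46 ± 0.04), whereas Nfe2l2, the factor NRF2 itself, differed by 0.07 ± 0.04 (adjusted p = 0.15). The metallothioneins Mt1 and Mt2 fell by 0.43 and 0.65, calls lost in the model of 10 libraries. Of 23 p53 targets 7 rose and 6 fell (0.01), and of 19 apoptosis regulators 5 rose and 5 fell (0.01). Of 29 genes of endoplasmic reticulum chaperones and the unfolded protein response 8 rose and 6 fell (0.06). Of 22 genes of G1 cyclins, CDKs and their inhibitors 4 rose and 6 fell (-0.05), of 20 genes around glutamate, proline and the TCA cycle 10 rose and 6 fell (0.10), and of 15 metal handling genes 4 rose and 3 fell (-0.05). The 12 noncoding RNAs of the nucleus and of snoRNA hosts gave 11 falls and 1 rise (median -0.46), the rise of 2410004N09Rik being small (0.17) and lost under 11 of 22 alternatives, and among the falls were the host gene Snhg11 (-1.15 ± 0.13) and the X-linked RNA Firre, listed as 6720401G13Rik (-0.93 ± 0.10). Few lineage genes were expressed enough to test, 3 of 21 for endoderm and trophoblast (none higher, 2 lower) and 3 of 20 for neural and mesoderm cells (2 higher, 1 lower), and none of 10 fibroblast genes. Tubb3, a neuronal tubulin also made by mESCs, rose by 0.71 ± 0.05.

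The 2 passages gave the same direction in 5998 of the 6000 called features (99.97%), and the difference was smaller at p20 in 4011 (66.85%). Since these are the passages from which the calls were made, the counts describe the pooled result. The test of whether the difference itself changed between p10 and p20 called 0 of 11654 features with limma (0%), with 1836 at an unadjusted p under 0.05, and limma with voom on reconstructed reads called 84. Leaving out p20 Keniry2022 replicate 2 gave 16 calls and leaving out p10 Mulas2019 replicate 2 gave 22. Single genes therefore show a trend in values only, such as Trh with 2.75 and 1.57 and Malat1 with -0.89 and -2.35.

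**Figure D5:**
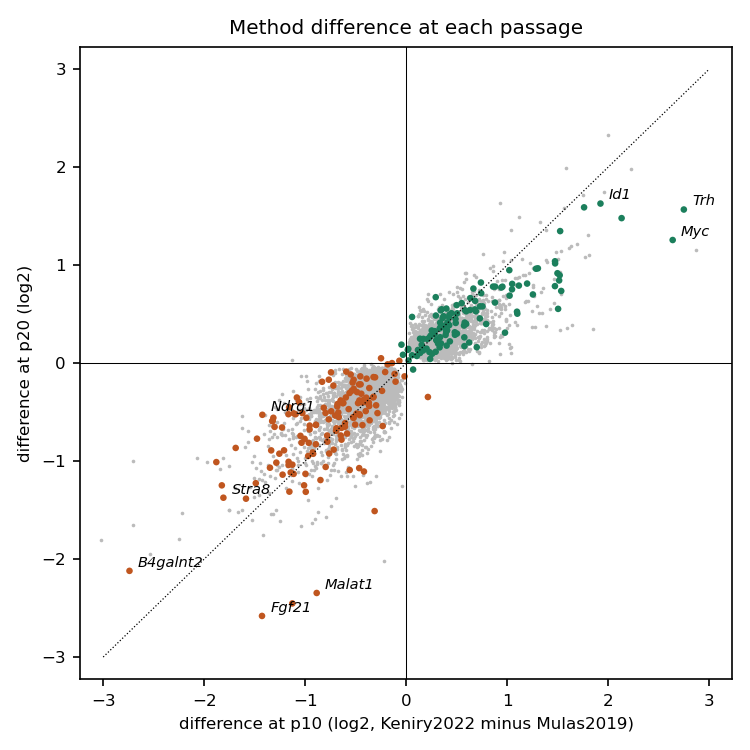
Log2 difference between methods at p20 (vertical axis) against p10 (horizontal axis), 1 grey point per called feature and coloured points for genes described in the text. Of the 6000 called features, 5998 have the same sign at both passages and 4011 are nearer to zero at p20.

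The p0 cells took no part in the calls. In 3799 of the 6000 called features (63.32%) both p0 libraries lay nearer to the mean of Keniry2022, in 657 (10.95%) both lay nearer to Mulas2019, and in the others they were split. Among the 177 features called at a log2 of 1 or more, 131 (74.01%) had both p0 libraries nearer to Keniry2022. Stra8 was at 5.30 and 5.10 at p0, inside the Keniry2022 range of 4.97 to 5.43, and Vegfa at 3.72 and 4.26. The p0 cells had themselves been grown by the Keniry2022 method, and their replicate 1 stood apart from the other libraries in genes such as Mdm4 (2.50 against 4.71 in replicate 2). Gja1 and Dnmt3b were exceptions, at 4.49 and 4.48 and at 4.14 and 4.31 at p0, nearer to the Mulas2019 means of 4.25 and 4.34.

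By chromosome, the autosomes had a median difference of -0.006 and the X chromosome of 0.07, with 128 of 391 X-linked features higher and 60 lower. Chromosome 13 had a median of 0.07, with 148 features higher and 85 lower of 436. Among the autosomes and X, chromosome 3 had the lowest share of calls, 39.2%. None of the 6 Y-linked features tested was called, at a median difference of 0.78. Each method pooled libraries with few and with many Y-linked reads, so the spread within a method was wide. The test therefore could not tell whether Y-linked genes differ.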

How the data were processed

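RNA was sequenced from 10 libraries, of which the 8 of the 2 culture methods at p10 and p20 entered the comparison. Libraries were grouped by their labels (New, the Keniry2022 method, and Old, the Mulas2019 method). The authors aligned single-end reads to mm10, counted them over genes in SeqMonk and deposited log2 values. HISAT2 is the aligner of their methods section, while TopHat2 2.0.12 stands in the submitters' processing notes. No source used here gives the strand setting of the counting. The deposited log2 values were found to be scaled for feature length as well as library size, so they are called log2 RPKM here, and a count of 0 had been entered as 0.9 reads. Whole reads and library totals were recovered from the steps between values. With lengths chosen per feature, 19338 of 19341 features with reads gave whole reads in all libraries. The table holds 25965 features, 25188 of them matched to GENCODE vM21 (GRCm38), 6624 without a read in any library and 6947 with exons that overlap another feature. Reads counted more than once or shared with pseudogenes and paralogues would change single values. Overlaps are given for some of the named genes only.

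Features with a log2 value above 0 in at least 50% of the 8 libraries were fitted with limma 3.58.1 in R 4.3.3, as its moderated test with an intensity trend, two-sided, and p-values were adjusted over every feature that was tested by the Benjamini-Hochberg method, with calls made under 0.05. All p-values are from this test unless another is named, and a feature under the threshold is called. The fit was tested on simulated data with independent libraries, so that test did not cover the dependence between libraries of the same line. The p-values measure the spread among 4 libraries of a method, which are 2 lines at 2 passages. The authors themselves fitted voom. No covariate was used. Whether the numbers pair the libraries was checked by the correlation of same-numbered deviations between groups, which was 0.51 to 0.63 among 3 of the groups and -0.70 to -0.43 between each of them and p20 Keniry2022. With the numbers of that group exchanged, all would be 0.43 to 0.70, so the numbers as deposited were not used as a block, and the block was tried both ways. The difference between passages was tested as an interaction with 4 groups of 2. Tables and figures were made with Python 3.11.15, numpy 2.4.6, pandas 2.3.3 and matplotlib 3.10.9.

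Genes are named by rule: the 20 greatest differences and the 10 smallest p in each direction among called features with a mean log2 of at least 3 and no overlap (leaving out ribosomal, respiratory chain and proteasome subunits by name), features on in one method, and in each gene list its first entry and its 3 greatest called differences. With further genes, such as Gldc, Suz12, Egln1, Nanog, Dazl and Itgb5, that were chosen after their values were seen, 253 genes were named. A few other genes are not reported here singly and stay in the counts of their lists. The gene lists, the rule and the comparison itself were chosen with earlier results of these data known. Lists are described by counts and medians, without a test. Alternatives were other filters, normalisations, models and the leaving out of each library. The libraries' totals, 24053996 to 30236823 reads, limit the precision of genes with few reads, whose read numbers are given beside them.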

Additional observations from a re-analysis of the deposited data

Results flagged for a closer look

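Among the named genes, 506 groups of 4 libraries were examined for a library far from the others, and 15 (2.96%) held one. The limit used flags about 1 in 20 groups of 4 independent normal values. That rate does not apply here, since a group is 2 lines at 2 passages. Many of the genes were also chosen for small p and no overlap. Under Keniry2022, p10 replicate 1 was low for Gja1 (5.01, the other 3 being 5.25 to 5.29) and high for Slc25a31 (1.85 against 1.43 to 1.49) and Suz12 (7.35 against 7.28 to 7.29), and p10 replicate 2 was high for Ddx58 (2.52 against 2.27 to 2.31). In p20 Keniry2022 replicate 1, Slc7a1 (4.43), Pou3f1 (0.50), Etv1 (0.94) and Mest (4.21) were below the other 3 libraries, and in p20 Keniry2022 replicate 2 Gm694 (3.93) and Actb (9.11) were above them. Under Mulas2019, p10 replicate 1 was the lowest for Slc6a15 (0.21 against 0.77 to 0.84), Oas1a (1.71 against 2.30 to 2.40) and Glul (3.51 against 3.98 to 4.07). Esrrb was high in p10 Mulas2019 replicate 2 (6.53 against 6.49), and Mt2 was low in p20 Mulas2019 replicate 1 (8.55 against 8.86 to 8.92).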

How the results depend on the processing

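The count of 6000 called features ran from 5049 to 5659 without single libraries and from 4663 to 6866 under the other alternatives, apart from the model of 10 libraries and 5 groups, which called 2225. No called feature was called in the other direction, apart from 35 under quantile normalisation and 134 with the exon length and GC correction. Of the 6000 calls, 4513 were also called under quantile normalisation, in either direction. With the length and GC correction, 4384 of the 5919 that were still tested were also called. The share of calls that were higher, 50.4%, was 59.3% with the stricter filter, 58.4% with the length and GC correction and 44.6% with no filter. With the replicate block 5749 features were called, 5706 of them also without it, and with the p20 Keniry2022 numbers crossed, an alternative chosen after seeing the data, 5780, of which 5723 were shared. Of the named genes, Gsc lost its call with the numbers crossed. The interaction count of 0 became 2 with the stricter filter, 84 with voom, 17 with the replicate block, 0 with the numbers crossed and 0 to 22 without single libraries. Of 235 named genes that were called, 166 kept the call under every alternative, 59 lost it in the model of 10 libraries and 17 without a library. The pseudocount of 1 shrank the difference of 33 called named genes, all with a mean log2 under 3, by over 1.5 times. The causes were not tested.

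Quantile normalisation turned the sign of Itgb1 (-0.093), Cdh1 (-0.084), Axin2 (0.018), Lif (0.071), Nfe2l2 (-0.0070), Lamp1 (-0.034), Sqstm1 (-0.024), Ezh2 (-0.032), Cth (-0.13), Eif4ebp1 (-0.059) and Esrrb (-0.098), of which Lamp1 alone had been called, and of the median of the glutamate and proline list (-0.018). The length and GC correction turned that of Fasn, which had been called (0.13), Itgb1 (-0.047), Axin2 (0.090), Lif (0.013), Dnmt1 (0.15) and Cth (-0.13). Of 40 lists, 20 had a median that took the other sign under at least 1 alternative, 16 of them with a median under 0.1 in size. Under quantile normalisation these were also mitosis (-0.057), ER chaperones (-0.070), serine and glycine (-0.037), NRF2 (-0.024), nuclear pore (-0.018), Polycomb (-0.016), WNT (0.017) and germline (0.058), and without single libraries the Nodal list ran down to -0.064. The stricter filter turned 4 medians, among them those of the junction list (0.087), the ERK list (-0.039) and the DNA methylation list (0.080). No filter turned 6, among them those of the neural and mesoderm list (-0.034) and the apoptosis list (-0.066), and the length and GC correction 6, among them those of the DNA methylation (0.11), actin (0.097) and WNT (0.053) lists. Without single libraries 5 genes that had not been called changed sign, Itgb1 running from -0.015 to 0.049, Axin2 from -0.19 to 0.035, Dnmt1 from -0.047 to 0.0033, B2m from -0.17 to 0.066 and Cth from -0.017 to 0.020.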
